A study of Mus musculus with 24 samples.

Results

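MacB3 cells were compared with MacB2 cells sorted from mouse lungs 3 weeks after the injection of tumour cells. The comparison used 6 of the 24 RNA sequencing libraries of the study, chosen by their titles: 3 of MacB3-3wk and 3 of MacB2-3wk. MacB3-3wk cells were gated as CD11b+, Ly6G-, CD64 high and CD11c+, and MacB2-3wk cells as CD11b+, Ly6G-, CD64 intermediate and CD11c-. Both groups came from male C57BL/6 mice aged 10 to 16 weeks that had received 100000 LLC-Luc cells, a Lewis lung carcinoma line carrying luciferase, with Matrigel in the left lung lobe. Only the left lobe with its tumour was taken, tissue of 3 to 5 mice was pooled for each library, and each of the 3 libraries in a group is from a separate experiment. The line comes from the same mouse strain. A sorted population of this kind can still hold more than 1 cell type, because the gate rests on 4 surface proteins. The same 2 populations had been sorted at 2 weeks (MacB3-2wk and MacB2-2wk, 3 libraries each), and these 6 libraries served as a second measurement of the contrast.

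Macrophages of a growing lung tumour are replaced in part by monocytes from the blood, which enter the tissue, lose the surface proteins of circulating cells and take on those of resident cells. Classical monocytes of the mouse carry Ly6C and the chemokine receptor CCR2, whereas mature tissue macrophages carry complement C1q, scavenger receptors, MHC class II and a large set of lysosomal enzymes. CD64, encoded by Fcgr1, is the high-affinity receptor for IgG, and CD11c, encoded by Itgax, is an integrin chain found on dendritic cells and on many lung macrophages.

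The 6 libraries had 16224 to 17542 genes above 0 and sums of 2384400 to 3242160 FPKM (fragments scaled to transcript length and to the mapped fragments of the library). Protein-coding genes made up 22.8%, 23.4% and 26.5% of the sum in MacB3-3wk, against 21.6%, 18.03% and 20.6% in MacB2-3wk, so the 2 groups did not overlap in this share. Relative depth, read from the steps between low values, was 0.707, 0.953 and 0.678 in MacB3-3wk and 0.742, 0.774 and 0.688 in MacB2-3wk, with 1 library of the study set to 1; absolute depth was unknown. Log2 values correlated at 0.923 to 0.926 within MacB3-3wk, at 0.907 to 0.918 within MacB2-3wk and at 0.894 to 0.909 between the groups. Replicates 1, 2 and 3 of both groups were run on lanes 2, 3 and 7, so each lane held 1 library of either group.

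Transcripts of the gating proteins were read first. Itgax (ENSMUSG00000030789, chromosome 7, 128129547 to 128150657, GRCm38) was at 71.9, 79.6 and 61.97 FPKM in MacB3-3wk, against 13.01, 13.2 and 9.796 FPKM in MacB2-3wk (log2 fold change 2.47, SE 0.24, adjusted p = 3.68e-06). Fcgr1 was at 133, 148 and 111 FPKM in MacB3-3wk, against 80.9, 91.5 and 76.9 FPKM in MacB2-3wk, and its log2 fold change of 0.64 (adjusted p = 0.0335) stayed under the minimum of 1 used for a call. The groups did not overlap for either gene, and both were higher in the population gated as higher for the protein. Itgam, which encodes CD11b and was part of both gates, was at 244, 207 and 238 FPKM in MacB3-3wk, against 166, 268 and 205 FPKM in MacB2-3wk, and the groups overlapped. Ly6g, the neutrophil protein that both gates excluded, was listed at 0 in all 6 libraries. Csf1r, the receptor for the macrophage growth factor CSF1, was at 366, 406 and 391 FPKM in MacB3-3wk, against 251, 168 and 247 FPKM in MacB2-3wk, a log2 fold change of 0.82 that was not called (adjusted p = 0.0883).

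Of 17156 genes tested, 277 were called higher in MacB3-3wk than in MacB2-3wk (1.61%) and 176 were called lower (1.03%), 2.64% in all. A call required an adjusted p under 0.05 in limma, with Benjamini-Hochberg adjustment over all genes tested, and a fold of at least 2 on the log2(FPKM + 1) scale. That scale understates the fold of genes with low values, and a gene that was not called is not shown to be equal in the groups. Protein-coding genes were 420 of the 453 called. In 449 of the 453 the 3 libraries of each group did not overlap, against 24.1% of all genes tested. Lack of overlap is therefore frequent, and for single genes below, called or not, it is a description only. The median log2 fold change over all genes tested was -0.04. Within lanes, 450 of the 453 genes had the sign of their call in each of lanes 2, 3 and 7. Where the groups do not overlap, that sign is fixed in every lane, so this count adds no separate evidence. With the replicate number, which equals the lane, as a block over all 24 libraries, 273 genes were called higher and 166 lower. With the block fitted to the 6 libraries alone, which left 2 residual degrees of freedom, 21 were called higher and 12 lower. That fit ended the calls of 73 of the 96 called genes that the naming rule selects, and the 24-library block ended 4, which are marked where they are described. Without MacB3-3wk replicate 3, 192 were called higher and 105 lower.

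**Figure D1:**
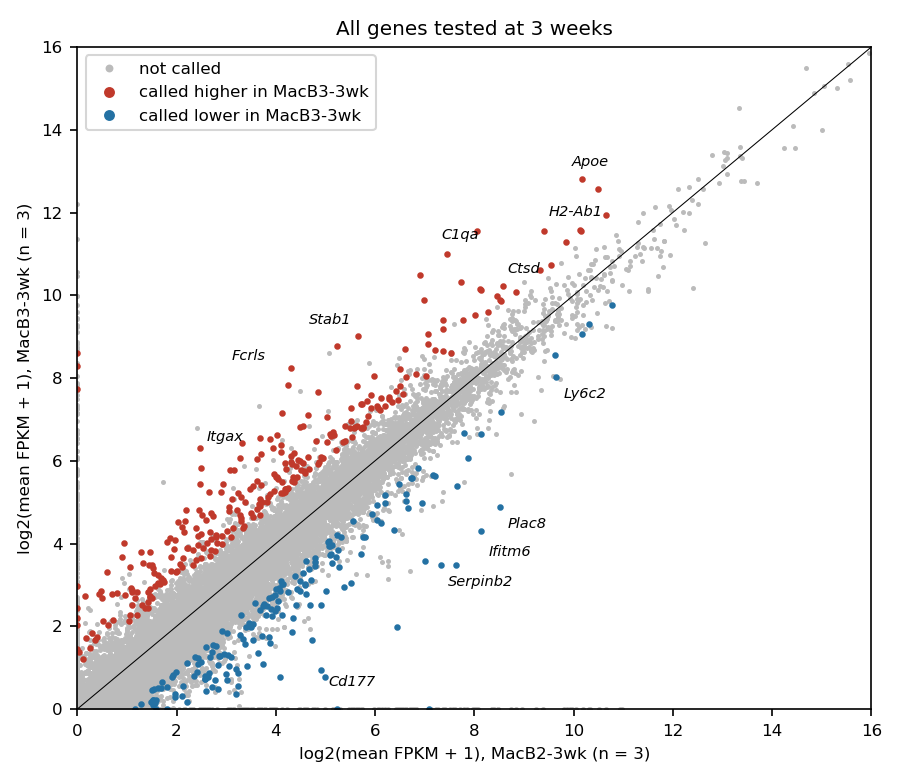
Mean level of each of the 17156 genes tested in MacB3-3wk (vertical axis) against MacB2-3wk (horizontal axis), both as log2(mean FPKM + 1) over 3 libraries, with the line of equal levels. The 277 genes called higher in MacB3-3wk are red and the 176 called lower are blue; C1qa, Apoe and H2-Ab1 lie high among the red points, and Cd177 and Plac8 far below the line.

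Among called protein-coding genes that averaged 20 FPKM or more in MacB3-3wk, the 12 with the largest excess were chosen from those whose groups did not overlap. They included the C1q chains, an Fc receptor-like gene, a scavenger receptor and chemokines. Fcrls (ENSMUSG00000015852, chromosome 3, 87250758 to 87263738), an Fc receptor-like gene used as a macrophage and microglia marker in mice, was at 281, 303 and 319 FPKM in MacB3-3wk, against 13.8, 35.4 and 7.23 FPKM in MacB2-3wk (log2 fold change 4.20, SE 0.47, adjusted p = 1.95e-05). Stab1 (ENSMUSG00000042286, chromosome 14, 31139013 to 31168641), which encodes the scavenger receptor stabilin-1, was at 609, 365 and 563 FPKM in MacB3-3wk, against 81.5, 28.4 and 39.2 FPKM in MacB2-3wk (log2 fold change 3.44, SE 0.61, adjusted p = 0.00237). In both genes every MacB3-3wk library was several times above every MacB2-3wk library. Cd72, a surface protein best known as an inhibitory receptor of B cells, was at 397, 449.7 and 467 FPKM in MacB3-3wk, against 44.5, 35.7 and 29.5 FPKM in MacB2-3wk (log2 fold change 3.56, SE 0.54, adjusted p = 0.000514). Ms4a7, a membrane gene of macrophages, was at 122, 166 and 136 FPKM in MacB3-3wk, against 10.9, 25.9 and 12.2 FPKM in MacB2-3wk (log2 fold change 3.12, SE 0.53, adjusted p = 0.0015). Mgl2, a galactose-binding lectin of macrophages and dendritic cells, was at 50.8, 41.3 and 75.4 FPKM in MacB3-3wk, against 7.96, 4.15 and 1.89 FPKM in MacB2-3wk (log2 fold change 3.43, SE 0.48, adjusted p = 0.000252).

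Klrb1b, a C-type lectin-like receptor first described on NK cells, varied most within MacB3-3wk among the 12 highest genes. It was at 109, 24.2 and 102 FPKM in MacB3-3wk, against 0.929, 7.61 and 5.02 FPKM in MacB2-3wk (log2 fold change 3.83, SE 0.72, adjusted p = 0.00369), with MacB3-3wk replicate 2 far below the other MacB3-3wk libraries and still above every MacB2-3wk library. Zmynd15, a zinc finger gene known as a repressor in spermatids, was at 81.9, 76.3 and 99.4 FPKM in MacB3-3wk, against 9.73, 5.59 and 11.5 FPKM in MacB2-3wk (log2 fold change 3.17, SE 0.47, adjusted p = 0.000458). Groups that did not overlap were a condition of the selection for both genes. Klrb1b, Mgl2 and Ly6c2 have close paralogs, so their reads could have been split or shared between copies.

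**Figure D2:**
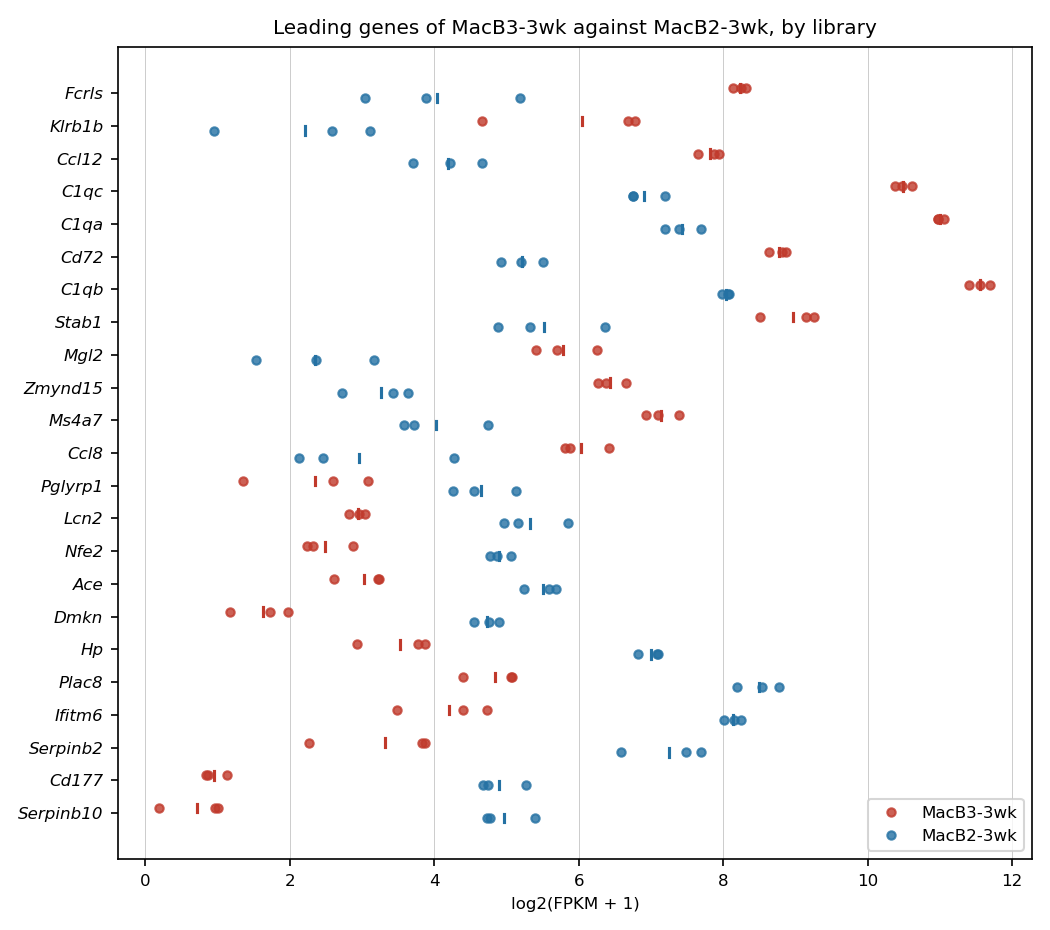
Level of 12 genes with the highest and 11 with the lowest log2 fold changes among called protein-coding genes that averaged 20 FPKM or more in 1 of the groups and whose libraries did not overlap. Each point is 1 library as log2(FPKM + 1), MacB3-3wk in red above MacB2-3wk in blue, and the short bar is the mean of 3 libraries; no gene shown has overlapping groups.

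Among called protein-coding genes that averaged 20 FPKM or more in MacB2-3wk, those with the largest deficit in MacB3-3wk were also chosen from genes whose groups did not overlap. They included surface and secreted protein genes of blood myeloid cells. Serpinb10, of the serpin family of protease inhibitors, was at 1.002, 0.947 and 0.144 FPKM in MacB3-3wk, against 25.4, 40.9 and 26.3 FPKM in MacB2-3wk (log2 fold change -4.24, SE 0.26, adjusted p = 1.84e-08). Cd177 (ENSMUSG00000052212, chromosome 7, 24743983 to 24760311), a surface glycoprotein best known from neutrophils, was at 1.18, 0.79 and 0.824 FPKM in MacB3-3wk, against 24.4, 37.6 and 25.7 FPKM in MacB2-3wk (log2 fold change -3.95, SE 0.22, adjusted p = 5.66e-09). MacB3-3wk replicate 3 was the lowest library for Serpinb10, but not for Cd177. Plac8 was at 32.4, 32.7 and 20.1 FPKM in MacB3-3wk, against 371, 437 and 291 FPKM in MacB2-3wk (log2 fold change -3.66, SE 0.34, adjusted p = 2.74e-06), and Ifitm6, a membrane gene of the interferon-induced family, at 25.5, 20.1 and 10.2 FPKM in MacB3-3wk, against 303, 282 and 256 FPKM in MacB2-3wk (log2 fold change -3.93, SE 0.42, adjusted p = 1.19e-05). Hp, which encodes haptoglobin, was at 12.7, 13.7 and 6.62 FPKM in MacB3-3wk, against 135, 136 and 112 FPKM in MacB2-3wk (log2 fold change -3.48, SE 0.47, adjusted p = 0.000178). For all 5 genes the highest MacB3-3wk library stayed well below the lowest MacB2-3wk library.

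Genes of this end with smaller folds included the following. Ace, the angiotensin-converting enzyme found on nonclassical monocytes and on endothelium, was at 8.36, 5.11 and 8.43 FPKM in MacB3-3wk, against 50.4, 36.7 and 47.3 FPKM in MacB2-3wk (log2 fold change -2.48, SE 0.34, adjusted p = 0.000197). Nfe2, a transcription factor of the blood lineages, was at 4.01, 6.36 and 3.71 FPKM in MacB3-3wk, against 32.3, 26.4 and 28.2 FPKM in MacB2-3wk (log2 fold change -2.42, SE 0.25, adjusted p = 6.93e-06). Dmkn, an epidermal secreted protein, was at 1.25, 2.303 and 2.93 FPKM in MacB3-3wk, against 26.05, 22.4 and 28.7 FPKM in MacB2-3wk (log2 fold change -3.11, SE 0.43, adjusted p = 0.000248). Lcn2, the iron-siderophore binding protein lipocalin-2, had a log2 fold change of -2.39 (adjusted p = 0.00413). Pglyrp1, a peptidoglycan recognition protein, fell by 2.3 on the log2 scale (adjusted p = 0.0121), and its call was lost without MacB2-3wk replicate 2 or MacB3-3wk replicate 3 (highest adjusted p = 0.088).

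Of 16 classical monocyte genes, 10 were called lower in MacB3-3wk and none higher (62.5%, against 2.64% of all genes tested), with a median log2 fold change of -1.80. Leaving out 1 library at a time gave 7 or 8 calls. The 10 included Plac8, Ifitm6, Cd177, Hp, Ly6c2, Ccr2, Chil3, Gsr and Vcan, of which Vcan (adjusted p = 0.0317) lost its call without any 1 of the 6 libraries (highest adjusted p = 0.132). Ly6c2, a Ly6C antigen gene, was at 159.8, 469 and 152 FPKM in MacB3-3wk, against 828, 768 and 798 FPKM in MacB2-3wk (log2 fold change -1.82, SE 0.37, adjusted p = 0.00683); MacB3-3wk replicate 2 was the high one of its group and still below all MacB2-3wk libraries. The call of Ly6c2 was lost without MacB3-3wk replicate 3 (adjusted p = 0.0538). Ccr2 was at 57.8, 49.3 and 59.6 FPKM in MacB3-3wk, against 114, 133 and 97.9 FPKM in MacB2-3wk (log2 fold change -1.03, SE 0.24, adjusted p = 0.019), with groups that did not overlap and a call that was lost without any 1 of 4 libraries, MacB2-3wk replicates 1 and 2 and MacB3-3wk replicates 2 and 3 (highest adjusted p = 0.0902). Fn1, which encodes fibronectin and was the most abundant of the list, was at 1223, 1434 and 878 FPKM in MacB3-3wk, against 1389, 1441 and 1812 FPKM in MacB2-3wk, with overlapping groups and no call (adjusted p = 0.676). Summed over the list, levels were 1455 to 2330 FPKM in MacB3-3wk, against 3966 to 4335 FPKM in MacB2-3wk. In sorted bulk samples, fewer cells of a type and less RNA per cell cannot be told apart.

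Nonclassical monocyte genes did not move as 1 block. Of 16, 4 were called lower and 2 higher (37.5%, against 2.64% of all genes tested), with a median log2 fold change of -0.58. Emr4, an adhesion receptor of this subset, was at 0.817, 0.349 and 0.718 FPKM in MacB3-3wk, against 5.77, 9.28 and 6.35 FPKM in MacB2-3wk (log2 fold change -2.31, SE 0.23, adjusted p = 4.33e-06), and Ace and Pglyrp1 were lower as given above. Ear2, a ribonuclease with close paralogs, was lower as well (log2 fold change -1.6, adjusted p = 0.000715). Cx3cr1, the fractalkine receptor, went the other way at 99.1, 83.1 and 112 FPKM in MacB3-3wk, against 38.9, 37.1 and 29.1 FPKM in MacB2-3wk (log2 fold change 1.46, SE 0.21, adjusted p = 0.000365), and no library of the 2 groups overlapped. Bcl2a1d, from a family of near-identical survival genes, was called higher (log2 fold change 1.20, adjusted p = 0.0319), a call lost without any 1 of 5 libraries, all but MacB2-3wk replicate 1 (highest adjusted p = 0.117).

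Of 26 genes of tissue and tumour macrophages, 16 were called higher in MacB3-3wk and none lower (61.5%, against 2.64% of all genes tested), with a median log2 fold change of 1.94. The log2 fold change was positive for all 26, and leaving out 1 library at a time left 13 to 15 calls. Summed levels were 17016 to 21678 FPKM in MacB3-3wk, against 3680 to 5011 FPKM in MacB2-3wk. Maf (ENSMUSG00000055435, chromosome 8, 115682942 to 115707794), a transcription factor of mature macrophages, was at 93.2, 98.7 and 105 FPKM in MacB3-3wk, against 37.6, 28.9 and 32.2 FPKM in MacB2-3wk (log2 fold change 1.57, SE 0.17, adjusted p = 1.23e-05). Apoe, the lipoprotein of cholesterol efflux, was among the most abundant called genes at 5602, 7541 and 8559.8 FPKM in MacB3-3wk, against 1125, 803 and 1534 FPKM in MacB2-3wk (log2 fold change 2.67, SE 0.42, adjusted p = 0.000715). Mrc1, the mannose receptor CD206, was at 99.9, 58.7 and 76.2 FPKM in MacB3-3wk, against 8.79, 22.3 and 12.3 FPKM in MacB2-3wk (log2 fold change 2.42, SE 0.38, adjusted p = 0.000781). Spp1, which encodes osteopontin, was at 511, 641 and 538 FPKM in MacB3-3wk, against 285, 475 and 303 FPKM in MacB2-3wk and was not called (adjusted p = 0.521). The other called members included Trem2, a lipid receptor, and Folr2, a folate receptor, with log2 fold changes of 2.05 and 2.73. Emr1, which encodes F4/80, was at 35.1, 39.2 and 43.3 FPKM in MacB3-3wk, against 16.7, 25.8 and 10.6 FPKM in MacB2-3wk (log2 fold change 1.19, SE 0.27, adjusted p = 0.0162); without MacB2-3wk replicate 1 or 3 or MacB3-3wk replicate 2 or 3 its call was lost (highest adjusted p = 0.0968).

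Complement genes were called higher in 8 of 22 and lower in none (36.4%, against 2.64% of all genes tested), with a median log2 fold change of 0.36. C1q, the recognition subunit of the classical pathway, is built from the 3 chains A, B and C, whose genes lie side by side on chromosome 4. C1qa (ENSMUSG00000036887, chromosome 4, 136895917 to 136898803) was at 2011, 2008 and 2124 FPKM in MacB3-3wk, against 145, 206 and 167 FPKM in MacB2-3wk (log2 fold change 3.57, SE 0.34, adjusted p = 2.74e-06). C1qb (ENSMUSG00000036905, chromosome 4, 136880129 to 136886187) was at 2714, 3329 and 3009 FPKM in MacB3-3wk, against 269, 253 and 267 FPKM in MacB2-3wk (log2 fold change 3.51, SE 0.33, adjusted p = 2.74e-06). C1qc (ENSMUSG00000036896, chromosome 4, 136889804 to 136893065) was at 1326, 1571 and 1423 FPKM in MacB3-3wk, against 107, 146 and 106 FPKM in MacB2-3wk (log2 fold change 3.59, SE 0.29, adjusted p = 4.97e-07). The 3 chains shared a fold of about the same size, with 95% intervals of 2.86 to 4.29 for C1qa, 2.81 to 4.21 for C1qb and 2.97 to 4.21 for C1qc. C3ar1, the receptor for the fragment C3a, was at 155, 178 and 162 FPKM in MacB3-3wk, against 51.7, 46.4 and 56.3 FPKM in MacB2-3wk (log2 fold change 1.66, SE 0.32, adjusted p = 0.0042), and C5ar1, the receptor for C5a, was also called (log2 fold change 1.04, adjusted p = 0.0142). The C5ar1 call was lost without MacB2-3wk replicate 2 or MacB3-3wk replicate 2 or 3 (highest adjusted p = 0.0823), and without MacB3-3wk replicate 2 the list had 5 calls. C3 was at 37.3, 60.9 and 31.1 FPKM in MacB3-3wk, against 169, 82.7 and 66.5 FPKM in MacB2-3wk, higher in each MacB2-3wk library than in each MacB3-3wk library, and was not called (adjusted p = 0.189).

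The promoter of C1qc is shown because the most strongly raised genes of the list belong to C1q and this window holds a purine-rich element, the kind of site that the myeloid factor PU.1 binds. The window is set by the RefSeq start site, whereas the gene position given above is from GENCODE M21 and reaches into the window. Part of the printed sequence therefore lies inside the gene as placed above. The 250 bases before its start site (chr4:136892915-136893164, minus strand, GRCm38.p6, RefSeq) read as follows, with the element in capitals on the opposite strand, 195 to 188 bases before the start.
C1qc: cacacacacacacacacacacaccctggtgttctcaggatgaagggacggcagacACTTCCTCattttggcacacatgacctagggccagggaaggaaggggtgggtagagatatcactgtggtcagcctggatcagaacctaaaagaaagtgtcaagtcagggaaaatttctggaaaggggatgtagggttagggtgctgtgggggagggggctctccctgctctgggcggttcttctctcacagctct
The letters GAGGAAGT, on either strand and within 250 bases before to 50 after the start, were in 20 of 200 genes called higher that had a window (10%), in 10 of 122 called lower (8.2%) and in 418 of 10427 genes tested (4.01%). A match describes the letters only, and no test was made of these shares.

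MHC class II genes carry peptides to CD4+ T cells. Of 13 class II presentation genes, 8 were called higher in MacB3-3wk and none lower (61.5%, against 2.64% of all genes tested). The median log2 fold change was 1.07, and leaving out 1 library at a time left 6 or 7 calls. H2-Eb1 (ENSMUSG00000060586, chromosome 17, 34305867 to 34316674) was at 1563, 1029 and 1255 FPKM in MacB3-3wk, against 212, 208 and 217 FPKM in MacB2-3wk (log2 fold change 2.57, SE 0.34, adjusted p = 0.000135). H2-Ab1 (ENSMUSG00000073421, chromosome 17, 34257689 to 34269419) was at 3511, 2567 and 2972 FPKM in MacB3-3wk, against 686, 617 and 723 FPKM in MacB2-3wk (log2 fold change 2.15, SE 0.32, adjusted p = 0.000436). H2-Aa (ENSMUSG00000036594, chromosome 17, 34282744 to 34287823) was at 1206, 938 and 1197 FPKM in MacB3-3wk, against 292, 269 and 282 FPKM in MacB2-3wk (log2 fold change 1.97, SE 0.31, adjusted p = 0.000715). No library of the 2 groups overlapped for these 3 chains, and the MacB2-3wk libraries lay close together. Ctss, the protease that trims the class II chaperone, was at 1373, 1764 and 1578 FPKM in MacB3-3wk, against 585, 683 and 639.6 FPKM in MacB2-3wk (log2 fold change 1.30, SE 0.20, adjusted p = 0.000649). H2-DMa, H2-DMb1, Cd74 and Ciita made up the rest of the 8, with log2 fold changes of 1.07, 1.44, 2.10 and 1.01. The call of H2-DMa was lost without MacB2-3wk replicate 3 (fold under the minimum), and that of Ciita, the class II transactivator, without any 1 of the 6 libraries (highest adjusted p = 0.152). H2-DMb2, H2-Ob and Ifi30 were not called.

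The promoters of H2-Aa and H2-Eb1 are shown because both encode called class II chains and both hold a Y box, the site of class II promoters that the factor NF-Y binds. The 250 bases before the start of H2-Aa (chr17:34287824-34288073, minus strand) and of H2-Eb1 (chr17:34305617-34305866, plus strand), from RefSeq on GRCm38.p6, carry the box in capitals, 51 to 44 bases before the start in H2-Aa and 62 to 55 before it in H2-Eb1.
H2-Aa: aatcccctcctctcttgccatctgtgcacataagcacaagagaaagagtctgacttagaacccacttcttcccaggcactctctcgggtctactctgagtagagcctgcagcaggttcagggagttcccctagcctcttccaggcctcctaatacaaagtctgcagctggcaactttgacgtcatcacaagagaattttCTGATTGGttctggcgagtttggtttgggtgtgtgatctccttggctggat
H2-Eb1: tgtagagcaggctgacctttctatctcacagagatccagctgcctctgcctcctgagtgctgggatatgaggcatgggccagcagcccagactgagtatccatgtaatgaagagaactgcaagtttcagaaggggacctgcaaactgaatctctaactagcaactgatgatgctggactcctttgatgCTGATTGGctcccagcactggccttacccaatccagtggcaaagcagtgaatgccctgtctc
The letters CTGATTGG on either strand, a motif chosen after the data were seen, were in 4 of 10 class II presentation genes with a window (H2-Aa, H2-Eb1, H2-Eb2 and H2-Oa, of which H2-Eb2 and H2-Oa were not called), in 8 of 200 genes called higher (4%) and in 6.17% of the genes tested.

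MHC class I presentation genes gave no call among 16 (median log2 fold change 0.40). B2m, the light chain of class I, was at 10445, 13624 and 10063 FPKM in MacB3-3wk, against 8018, 7578 and 9465 FPKM in MacB2-3wk (adjusted p = 0.541). H2-K1 was at 865, 1138 and 965 FPKM in MacB3-3wk, against 539, 435 and 717 FPKM in MacB2-3wk (adjusted p = 0.0615). For both genes every MacB3-3wk library was above every MacB2-3wk library, and 24.1% of all genes tested had groups that did not overlap. At an unadjusted p under 0.05 stood 5 of the 16, and leaving out 1 library at a time gave up to 2 calls.

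Of 31 type I interferon-stimulated genes, 1 was called higher and 1 lower (6.45%, against 2.64% of all genes tested), with a median log2 fold change of -0.37. The higher one was Bst2, which encodes tetherin, at 365, 476 and 316 FPKM in MacB3-3wk, against 179, 192 and 181 FPKM in MacB2-3wk (log2 fold change 1.04, SE 0.26, adjusted p = 0.0278), and its call was lost without any 1 of 5 libraries, all but MacB3-3wk replicate 3 (highest adjusted p = 0.139). The lower one was Slfn1, at 18.9, 38.4 and 19.04 FPKM in MacB3-3wk, against 58.04, 61.3 and 60.6 FPKM in MacB2-3wk (log2 fold change -1.28, SE 0.28, adjusted p = 0.0121), lost without MacB3-3wk replicate 1 or 3 (highest adjusted p = 0.0776). Irf7, a regulator of the response, was at 255, 677 and 282 FPKM in MacB3-3wk, against 309, 303 and 300.4 FPKM in MacB2-3wk, with MacB3-3wk replicate 2 high and the other libraries alike (adjusted p = 0.834). Of 16 interferon-gamma response genes, Cxcl9 and Batf2 were called higher (12.5%). Cxcl9, a chemokine for activated T cells, was at 162, 84.7 and 96.9 FPKM in MacB3-3wk, against 32.3, 15.3 and 19.4 FPKM in MacB2-3wk (log2 fold change 2.32, SE 0.31, adjusted p = 0.000178). Batf2 had a log2 fold change of 1.15 (adjusted p = 0.0466) that was lost under the block over 24 libraries (adjusted p = 0.051) and without any 1 of 5 libraries, all but MacB2-3wk replicate 1 (highest adjusted p = 0.202). The interferon response element, searched on both strands, was in 12 of 22 type I interferon-stimulated genes with a promoter window, in 10 of 200 genes called higher (5%) and in 3.83% of genes tested.

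Lysosomal hydrolases and cathepsins, the enzymes that digest what phagocytes take up, were called higher in 15 of 30 and lower in 1. That is 53.3% of the list, against 2.64% of all genes tested, with a median log2 fold change of 0.98. Leaving out 1 library at a time left 12 to 15 higher calls. Lgmn, the asparaginyl endopeptidase legumain, was at 624, 704 and 689 FPKM in MacB3-3wk, against 155, 162 and 173 FPKM in MacB2-3wk (log2 fold change 2.03, SE 0.29, adjusted p = 0.000307). Acp2, lysosomal acid phosphatase, was at 556, 489.7 and 554 FPKM in MacB3-3wk, against 133, 103 and 165 FPKM in MacB2-3wk (log2 fold change 2.01, SE 0.24, adjusted p = 5.37e-05). The libraries of each group lay close together and the groups did not overlap. Ctsb, cathepsin B, was at 861, 1257 and 923 FPKM in MacB3-3wk, against 339, 367 and 349 FPKM in MacB2-3wk (log2 fold change 1.5, SE 0.19, adjusted p = 6.27e-05). Ctsd, cathepsin D, was at 1034, 1377 and 1189 FPKM in MacB3-3wk, against 323, 449 and 365 FPKM in MacB2-3wk (log2 fold change 1.66, SE 0.30, adjusted p = 0.00268). The other called members included Ctsc, Ctsh, Ctss, Ctsz, Hexa, Gusb, Naglu, Man2b1 and Tpp1, of which Ctsh (adjusted p = 0.0249, highest without 1 library 0.125), Man2b1 and Tpp1 lost their calls without 5, 2 and 2 of the 6 libraries in turn, MacB3-3wk replicate 2 each time among them.

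A member of the list went the other way. Ctse, an aspartic protease outside the classical lysosome, was called lower at 7.08, 9.83 and 8.08 FPKM in MacB3-3wk, against 22.1, 14.6 and 22.6 FPKM in MacB2-3wk (log2 fold change -1.14, SE 0.31, adjusted p = 0.0456), a call lost without any 1 of 5 libraries, all but MacB2-3wk replicate 2 (highest adjusted p = 0.151). Psap, the precursor of the saposins, was at 1227, 1607 and 1295 FPKM in MacB3-3wk, against 697, 679 and 784 FPKM in MacB2-3wk and its log2 fold change of 0.93 fell short of the minimum (adjusted p = 0.0408). Ctsa was at 2511, 2393 and 987 FPKM in MacB3-3wk, against 471, 1179 and 1524 FPKM in MacB2-3wk, with wide and overlapping groups (adjusted p = 0.257). Of 24 lysosomal membrane proteins and proton pump subunits, 2 were called higher and none lower (median log2 fold change 0.45). That is 8.33% of this list, against 2.64% of all genes tested. Slc29a3, a lysosomal nucleoside carrier, was at 59.3, 76.95 and 61.01 FPKM in MacB3-3wk, against 31.002, 25.6 and 31.5 FPKM in MacB2-3wk (log2 fold change 1.13, SE 0.19, adjusted p = 0.00126). The other was Cd63 (log2 fold change 1.46, adjusted p = 0.0324), whose call was lost without any 1 of 5 libraries, all but MacB2-3wk replicate 2 (highest adjusted p = 0.126).

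The promoter of Ctsd is shown because it holds the CLEAR element, the site that the lysosomal regulator TFEB binds. The 250 bases before its start (chr7:142387828-142388077, minus strand, GRCm38.p6, RefSeq) carry the element in capitals, 99 to 92 bases before the start.
Ctsd: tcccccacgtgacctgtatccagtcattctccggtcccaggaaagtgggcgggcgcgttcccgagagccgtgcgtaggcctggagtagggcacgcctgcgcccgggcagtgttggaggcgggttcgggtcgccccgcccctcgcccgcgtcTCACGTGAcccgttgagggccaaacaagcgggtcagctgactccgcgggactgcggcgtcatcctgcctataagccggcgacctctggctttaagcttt
The letters TCACGTGA, the same on both strands, were in 2 of 23 lysosomal hydrolase genes with a window (Ctsa and Ctsd), in 4 of 200 genes called higher (2%), in none of 122 called lower and in 2.09% of genes tested.

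**Figure D3:**
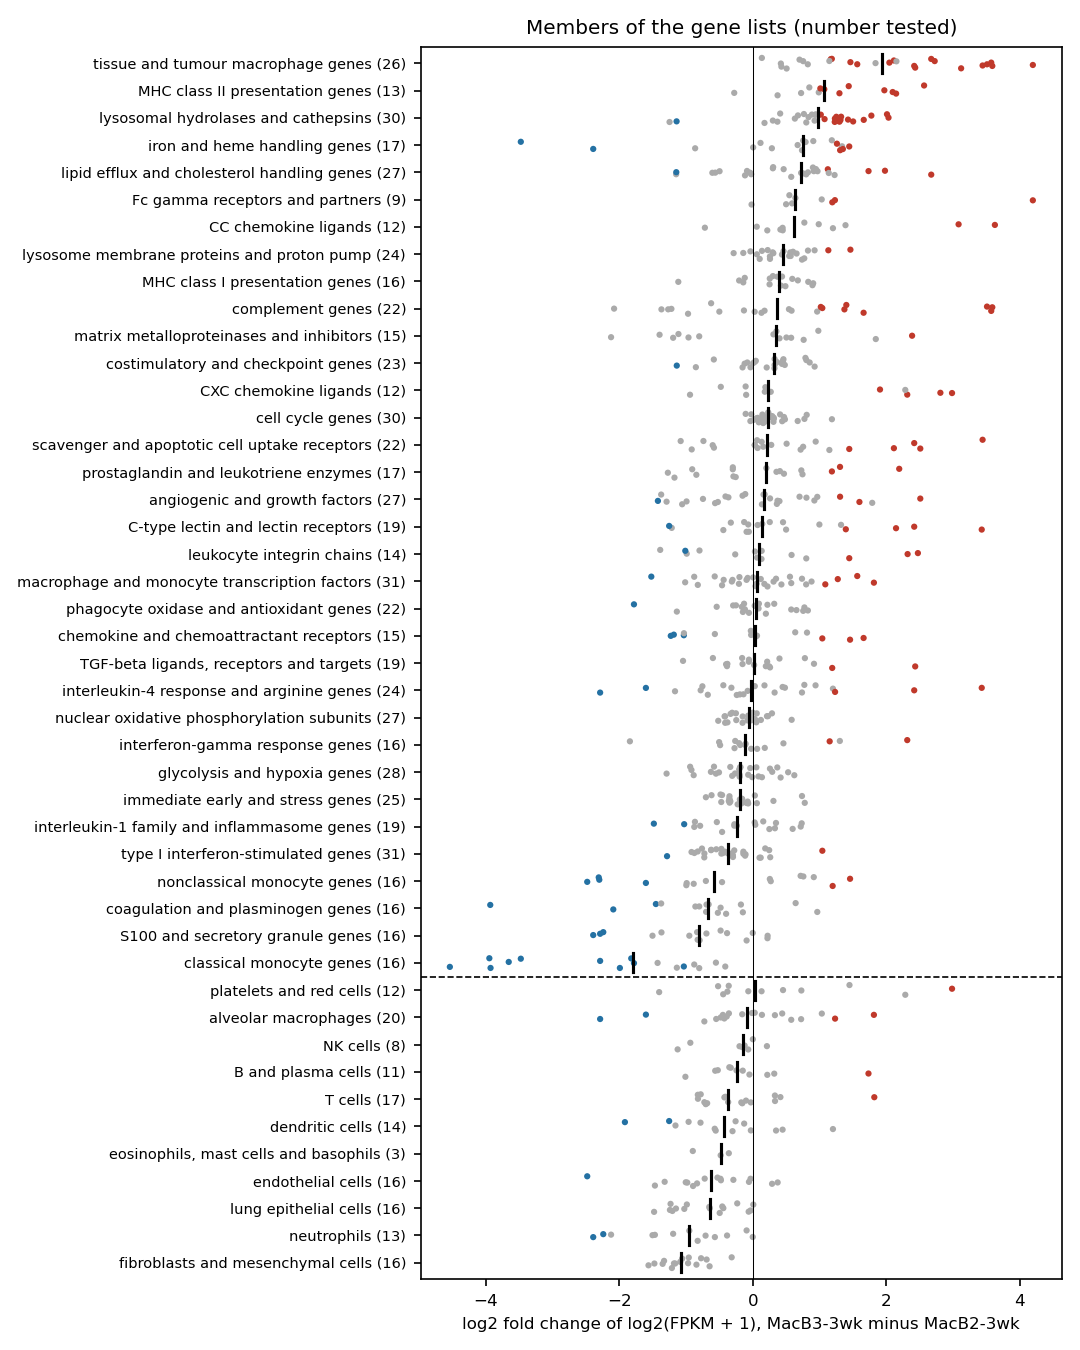
Log2 fold change, MacB3-3wk minus MacB2-3wk, of each tested member of 45 gene lists, with the number tested in brackets. Points are genes, red where called higher, blue where called lower and grey where not called, the black bar is the median of the list, and lists for other cell types stand below the dashed line. The median was 1.94 for tissue and tumour macrophage genes, 1.07 for MHC class II and -1.80 for classical monocyte genes.

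Of 27 genes of lipid efflux and cholesterol handling, 4 were called higher, against 1.61% of all genes tested that were called higher. Fabp5, a fatty acid carrier, was at 279, 336 and 283 FPKM in MacB3-3wk, against 93.1, 103 and 73.3 FPKM in MacB2-3wk (log2 fold change 1.74, SE 0.36, adjusted p = 0.00881). Ch25h, which makes 25-hydroxycholesterol, was at 17.7, 20.3 and 20.9 FPKM in MacB3-3wk, against 4.03, 3.82 and 4.85 FPKM in MacB2-3wk (log2 fold change 1.98, SE 0.36, adjusted p = 0.0027). Abca1, the cholesterol efflux pump, was the other higher call beside Apoe, with a log2 fold change of 1.13 (adjusted p = 0.0234), lost without MacB2-3wk replicate 1 or 2 or MacB3-3wk replicate 1 or 3 (highest adjusted p = 0.113). The libraries of the groups did not overlap for Fabp5 or Ch25h.

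Of 17 iron and heme genes, 4 were called higher and 2 lower (35.3%, against 2.64% of all genes tested). Ftl1, the ferritin light chain, was at 3418, 5077 and 3287 FPKM in MacB3-3wk, against 1497, 1734 and 1593 FPKM in MacB2-3wk (log2 fold change 1.26, SE 0.25, adjusted p = 0.00672). Blvrb, a biliverdin reductase of heme breakdown, was at 137, 159.6 and 163 FPKM in MacB3-3wk, against 61.6, 56.4 and 60.1 FPKM in MacB2-3wk (log2 fold change 1.35, SE 0.25, adjusted p = 0.00289). Hmox1, heme oxygenase 1, and Trf, transferrin, were also called higher, with log2 fold changes of 1.45 (adjusted p = 0.0252) and 1.31 (adjusted p = 0.0496). The Trf call was lost without any 1 of the 6 libraries (highest adjusted p = 0.191), and the Hmox1 call without any but MacB2-3wk replicate 3 (highest adjusted p = 0.0935). Fth1, the ferritin heavy chain, was at 19796, 28555 and 22477 FPKM in MacB3-3wk, against 9242, 9691 and 12068 FPKM in MacB2-3wk, without overlap and without a call (adjusted p = 0.065). The lower members, Hp and Lcn2, are secreted binding proteins for hemoglobin and for siderophores. Leaving out 1 library at a time left 2 or 3 higher calls in the list, with 2 left without MacB2-3wk replicate 1 or 2 or MacB3-3wk replicate 2 or 3.

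Chemokine ligands were called higher in 2 of 12 CC and 4 of 12 CXC genes, and none was called lower. These are 16.7% and 33.3% of the lists, against 2.64% of all genes tested. Cxcl16, the membrane-bound ligand of CXCR6, was at 186, 196 and 225 FPKM in MacB3-3wk, against 26.02, 28.7 and 28.9 FPKM in MacB2-3wk (log2 fold change 2.81, SE 0.22, adjusted p = 3.28e-07), with the smallest adjusted p of both lists. Pf4, a chemokine of platelets that some macrophages also express, was at 1237, 899 and 719 FPKM in MacB3-3wk, against 188, 117 and 71.1 FPKM in MacB2-3wk (log2 fold change 2.99, SE 0.47, adjusted p = 0.000718). Cxcl14 was at 55.7, 92.9 and 65.8 FPKM in MacB3-3wk, against 20.2, 9.56 and 29.04 FPKM in MacB2-3wk (log2 fold change 1.91, SE 0.44, adjusted p = 0.0184), and its call was lost without MacB2-3wk replicate 2 or MacB3-3wk replicate 2 or 3 (highest adjusted p = 0.115). Ccl12, a monocyte attractant of the mouse, was at 201, 234 and 244 FPKM in MacB3-3wk, against 24.3, 17.6 and 11.996 FPKM in MacB2-3wk (log2 fold change 3.63, SE 0.81, adjusted p = 0.0139), a call lost without MacB2-3wk replicate 3 or MacB3-3wk replicate 2 or 3 (highest adjusted p = 0.062). Ccl8 was at 55.2, 57.6 and 84.9 FPKM in MacB3-3wk, against 4.48, 18.3 and 3.38 FPKM in MacB2-3wk (log2 fold change 3.08, SE 0.66, adjusted p = 0.0108), a call lost without MacB2-3wk replicate 1 or 3 or MacB3-3wk replicate 3 (highest adjusted p = 0.0626). In these 5 genes the groups did not overlap, which held for 24.1% of all genes tested. Ccl6 and Cxcl2 had overlapping groups: Ccl6 was at 1590.0, 1022 and 1054 FPKM in MacB3-3wk, against 1378, 939 and 1166 FPKM in MacB2-3wk (adjusted p = 1). Cxcl2, a neutrophil attractant, was at 603, 911 and 703 FPKM in MacB3-3wk, against 668, 358 and 1108 FPKM in MacB2-3wk (adjusted p = 0.958).

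Among 15 receptors for chemokines and chemoattractants, 3 were called higher (Cx3cr1, C3ar1 and C5ar1) and 3 lower (Ccr2, Fpr2 and Ltb4r1). That is 40% of the list, against 2.64% of all genes tested. Without MacB3-3wk replicate 3 no receptor was called lower, and without any 1 of MacB2-3wk replicates 1, 2 and 3 and MacB3-3wk replicate 2 there was 1. Fpr2, a receptor for formyl peptides, was at 4.76, 7.69 and 4.82 FPKM in MacB3-3wk, against 10.7, 16.997 and 16.7 FPKM in MacB2-3wk (log2 fold change -1.23, SE 0.27, adjusted p = 0.012), a call lost without MacB2-3wk replicate 2 or 3 or MacB3-3wk replicate 1 or 3 (highest adjusted p = 0.0658). Ccr1 was at 101, 114 and 102 FPKM in MacB3-3wk, against 92.8, 108 and 102 FPKM in MacB2-3wk (adjusted p = 0.985), and Cxcr4, the receptor of CXCL12, at 242, 431 and 315 FPKM in MacB3-3wk, against 328, 280.0 and 376 FPKM in MacB2-3wk (adjusted p = 1).

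Uptake receptors were represented by 5 higher calls of 22 scavenger and apoptotic cell genes, with none lower (22.7%, against 2.64% of all genes tested). Besides Stab1 and Mrc1 these were Gas6, Mertk and Itgb5. Gas6, the bridging ligand that links dying cells to the receptors MERTK and AXL, was at 22.4, 18.9 and 24.3 FPKM in MacB3-3wk, against 1.87, 3.45 and 3.97 FPKM in MacB2-3wk (log2 fold change 2.51, SE 0.27, adjusted p = 1.19e-05). Mertk was at 24.1, 26.04 and 26.4 FPKM in MacB3-3wk, against 3.14, 8.196 and 5.02 FPKM in MacB2-3wk (log2 fold change 2.12, SE 0.46, adjusted p = 0.0126), a call lost without MacB2-3wk replicate 1 or MacB3-3wk replicate 3 (highest adjusted p = 0.0729). Itgb5, an integrin chain of apoptotic cell uptake, was at 64.8, 107 and 87.02 FPKM in MacB3-3wk, against 34.2, 20.4 and 40.1 FPKM in MacB2-3wk (log2 fold change 1.45, SE 0.38, adjusted p = 0.038), a call lost under the block over 24 libraries (adjusted p = 0.0585) and without MacB2-3wk replicate 1 or 2 or MacB3-3wk replicate 2 or 3 (highest adjusted p = 0.18). Axl was at 221, 233 and 229.6 FPKM in MacB3-3wk, against 103, 89.5 and 116 FPKM in MacB2-3wk, with groups apart and no call (adjusted p = 0.0811). The list had 3 calls without MacB2-3wk replicate 1 and 3 without MacB3-3wk replicate 3.

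Among 19 lectin receptors, 4 were called higher and 1 lower (26.3%, against 2.64% of all genes tested). Siglec1, the sialic acid receptor CD169, was at 63.3, 84.1 and 72.9 FPKM in MacB3-3wk, against 14.1, 22.2 and 12.2 FPKM in MacB2-3wk (log2 fold change 2.15, SE 0.41, adjusted p = 0.00432). Clec4n, which encodes Dectin-2, was at 941, 976 and 913 FPKM in MacB3-3wk, against 295, 335 and 464 FPKM in MacB2-3wk (log2 fold change 1.39, SE 0.37, adjusted p = 0.0385). The Clec4n call was lost under the block over 24 libraries (adjusted p = 0.0517) and without any 1 of 5 libraries, all but MacB2-3wk replicate 3 (highest adjusted p = 0.144). Cd209a, a DC-SIGN gene, was the lower one at 1.06, 2.27 and 0.74 FPKM in MacB3-3wk, against 4.31, 4.95 and 4.03 FPKM in MacB2-3wk (log2 fold change -1.25, SE 0.34, adjusted p = 0.049), a call lost under the same block (adjusted p = 0.0643) and without any 1 of 5 libraries, all but MacB3-3wk replicate 2 (highest adjusted p = 0.206). Mgl2 and Mrc1 are given above.

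Of 9 Fc gamma receptors and partners, 3 were called higher (33.3%, against 2.64% of all genes tested). Fcgrt, the neonatal Fc receptor, was at 28.2, 29.8 and 35.1 FPKM in MacB3-3wk, against 11.3, 12.1 and 15.8 FPKM in MacB2-3wk (log2 fold change 1.19, SE 0.14, adjusted p = 3.76e-05), and Fcrls is given above. Fcgr4, an activating receptor, was at 105, 90.9 and 134 FPKM in MacB3-3wk, against 57.4, 49.97 and 33.1 FPKM in MacB2-3wk (log2 fold change 1.23, SE 0.29, adjusted p = 0.0186), a call lost without MacB2-3wk replicate 3 or MacB3-3wk replicate 1 or 3 (highest adjusted p = 0.105). Fcgr2b, the inhibitory receptor, was at 1077, 1087 and 1110.3 FPKM in MacB3-3wk, against 637, 322 and 737 FPKM in MacB2-3wk, with groups apart but no call (adjusted p = 0.196). Fcer1g, the shared signalling chain, was at 6742, 6308 and 5227 FPKM in MacB3-3wk, against 4669.9, 3023 and 5568 FPKM in MacB2-3wk (adjusted p = 0.543).

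The interleukin-4 and arginine list went in both directions, with 3 of 24 higher (Mrc1, Mgl2 and Slc7a2) and 2 lower (Chil3 and Ear2). That is 20.8% of the list, against 2.64% of all genes tested. Arg1, arginase 1, was at 622, 477 and 295 FPKM in MacB3-3wk, against 304, 174 and 233 FPKM in MacB2-3wk, with overlapping groups and no call (adjusted p = 0.313). Chil3, the chitinase-like protein Ym1, was at 30.05, 29.7 and 63.5 FPKM in MacB3-3wk, against 121, 236 and 245 FPKM in MacB2-3wk (log2 fold change -2.29, SE 0.58, adjusted p = 0.0313), a call lost without MacB2-3wk replicate 2 or 3 or MacB3-3wk replicate 1 or 2 (highest adjusted p = 0.126). Slc7a2, an arginine carrier, was at 10.7, 11.3 and 11.3 FPKM in MacB3-3wk, against 4.58, 5.47 and 2.78 FPKM in MacB2-3wk (log2 fold change 1.23, SE 0.31, adjusted p = 0.0316), a call lost without any 1 of 5 libraries, all but MacB2-3wk replicate 2 (highest adjusted p = 0.142).

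Among 14 leukocyte integrin chains, Itgax, Itga9 and Itgb5 were called higher and Itga4 lower, 28.6% of the list against 2.64% of all genes tested. Itga9 was at 15.6, 17.6 and 22.4 FPKM in MacB3-3wk, against 6.05, 3.47 and 0.834 FPKM in MacB2-3wk (log2 fold change 2.32, SE 0.52, adjusted p = 0.0139), with MacB2-3wk replicate 3 the lowest library, and its call was lost without MacB2-3wk replicate 3 or MacB3-3wk replicate 3 (highest adjusted p = 0.0872). Itga4, the alpha chain of VLA-4, was at 21.2, 23.3 and 22.1 FPKM in MacB3-3wk, against 44.1, 52.3 and 41.4 FPKM in MacB2-3wk (log2 fold change -1.01, SE 0.24, adjusted p = 0.0192), a call lost without any 1 of 5 libraries, all but MacB2-3wk replicate 3 (highest adjusted p = 0.0869). Mmp13, an interstitial collagenase, was the 1 called metalloproteinase of 15 genes in that list, at 25.8, 18.8 and 22.6 FPKM in MacB3-3wk, against 2.69, 3.54 and 4.19 FPKM in MacB2-3wk (log2 fold change 2.39, SE 0.23, adjusted p = 2.74e-06). Mmp12, macrophage elastase, was at 589.5, 715 and 604 FPKM in MacB3-3wk, against 160.2, 113 and 301 FPKM in MacB2-3wk, without overlap and without a call (adjusted p = 0.0561). Mmp9 was at 193, 95.6 and 83.7 FPKM in MacB3-3wk, against 289, 434 and 1036 FPKM in MacB2-3wk (adjusted p = 0.144). Of the metalloproteinase list, 6.67% was called.

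Growth factor genes were called higher in 3 of 27 and lower in 1 (14.8% called, against 2.64% of all genes tested). Grn, which encodes progranulin, was at 810.4, 956 and 1000.1 FPKM in MacB3-3wk, against 359.6, 366 and 385 FPKM in MacB2-3wk (log2 fold change 1.31, SE 0.20, adjusted p = 0.000558), and Gas6 is given above. Pdgfb was at 18.1, 14.8 and 22.02 FPKM in MacB3-3wk, against 5.64, 3.99 and 6.56 FPKM in MacB2-3wk (log2 fold change 1.6, SE 0.39, adjusted p = 0.0251), a call lost without MacB2-3wk replicate 1 or 2 or MacB3-3wk replicate 1 or 3 (highest adjusted p = 0.115). Ereg, which encodes epiregulin, was lower at 1.15, 1.11 and 1.95 FPKM in MacB3-3wk, against 5.93, 5.04 and 5.16 FPKM in MacB2-3wk (log2 fold change -1.42, SE 0.33, adjusted p = 0.0167), a call lost without MacB2-3wk replicate 1 or MacB3-3wk replicate 1 or 2 (highest adjusted p = 0.0759). Thbs1, which encodes thrombospondin 1, was at 658, 660.2 and 514 FPKM in MacB3-3wk, against 1546, 1254 and 2005 FPKM in MacB2-3wk, lower without overlap and not called (adjusted p = 0.218). In the TGF-beta list, 2 of 19 were called higher (10.5%). Pmepa1, a feedback target of TGF-beta, was at 100.3, 163 and 146 FPKM in MacB3-3wk, against 19.2, 24.6 and 28.9 FPKM in MacB2-3wk (log2 fold change 2.43, SE 0.35, adjusted p = 0.00031). Tgfbr1, the type I receptor, was at 61.9, 65.2 and 75.6 FPKM in MacB3-3wk, against 31.4, 27.9 and 27.6 FPKM in MacB2-3wk (log2 fold change 1.19, SE 0.19, adjusted p = 0.000718). The ligand Tgfb1 was at 408, 572 and 417 FPKM in MacB3-3wk, against 636, 328 and 641 FPKM in MacB2-3wk, with overlapping groups (adjusted p = 0.914).

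Lipid mediator enzymes were called higher in 3 of 17 (17.6%, against 2.64% of all genes tested). Pla2g15, the lysosomal phospholipase A2, was at 41.03, 44.99 and 48.4 FPKM in MacB3-3wk, against 18.4, 19.5 and 19.4 FPKM in MacB2-3wk (log2 fold change 1.19, SE 0.13, adjusted p = 2.35e-05). Tbxas1, thromboxane synthase, was at 32.7, 39.9 and 34.04 FPKM in MacB3-3wk, against 16.7, 12.6 and 12.2 FPKM in MacB2-3wk (log2 fold change 1.31, SE 0.23, adjusted p = 0.00263). Hpgds, hematopoietic prostaglandin D synthase, was at 12.6, 6.24 and 12.8 FPKM in MacB3-3wk, against 1.25, 2.35 and 0.892 FPKM in MacB2-3wk (log2 fold change 2.19, SE 0.50, adjusted p = 0.0169), a call lost without MacB2-3wk replicate 1 or 3 or MacB3-3wk replicate 1 or 3 (highest adjusted p = 0.0852). Alox5ap, the partner of 5-lipoxygenase, was the most abundant of the list at 29227, 37204 and 31891 FPKM in MacB3-3wk, against 43167, 30124 and 48689.5 FPKM in MacB2-3wk, with overlapping groups (adjusted p = 0.845).

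Coagulation genes were called lower in 3 of 16 and higher in none (18.75%, against 2.64% of all genes tested), with a median log2 fold change of -0.68. Serpinb2, plasminogen activator inhibitor 2, was at 13.6, 13.2 and 3.805 FPKM in MacB3-3wk, against 94.6, 179 and 205 FPKM in MacB2-3wk (log2 fold change -3.93, SE 0.69, adjusted p = 0.00218). Thbd, thrombomodulin, was at 29.7, 45.4 and 31.6 FPKM in MacB3-3wk, against 102, 83.4 and 108 FPKM in MacB2-3wk (log2 fold change -1.45, SE 0.24, adjusted p = 0.00113). F5, coagulation factor V, was at 2.09, 4.23 and 0.816 FPKM in MacB3-3wk, against 11.2, 15.05 and 10.6 FPKM in MacB2-3wk (log2 fold change -2.09, SE 0.35, adjusted p = 0.00126). All 3 were lower in each MacB3-3wk library than in each MacB2-3wk library. Of 16 S100 and granule genes, 3 were called lower (Lcn2, Prtn3 and Chil3), 18.75% against 2.64% of all genes tested. Each of these 3 is also counted in another list. S100a4 was at 1403, 989.9 and 1014 FPKM in MacB3-3wk, against 3041, 2710.2 and 2942 FPKM in MacB2-3wk, lower without overlap and not called (adjusted p = 0.128).

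Transcription factors of macrophages and monocytes were called higher in 4 of 31 and lower in 1 (16.1%, against 2.64% of all genes tested). Cebpa, which encodes C/EBP alpha, was at 137, 175 and 153 FPKM in MacB3-3wk, against 66.9, 43.9 and 85.95 FPKM in MacB2-3wk (log2 fold change 1.27, SE 0.21, adjusted p = 0.00134). Irf8 was at 88.5, 73.3 and 96.2 FPKM in MacB3-3wk, against 39.6, 42.5 and 37.1 FPKM in MacB2-3wk (log2 fold change 1.09, SE 0.22, adjusted p = 0.00619). Bhlhe41 was at 25.4, 37.5 and 38.9 FPKM in MacB3-3wk, against 7.35, 9.06 and 10.04 FPKM in MacB2-3wk (log2 fold change 1.82, SE 0.40, adjusted p = 0.0128), a call lost without MacB2-3wk replicate 1 or MacB3-3wk replicate 2 or 3 (highest adjusted p = 0.0672). Id3, an inhibitor of helix-loop-helix factors, was lower at 14.7, 32.5 and 21.6 FPKM in MacB3-3wk, against 56.7, 77.7 and 60.7 FPKM in MacB2-3wk (log2 fold change -1.52, SE 0.31, adjusted p = 0.0072). Spi1, which encodes PU.1, was at 617, 695 and 681 FPKM in MacB3-3wk, against 722, 442 and 809.7 FPKM in MacB2-3wk, with overlapping groups (adjusted p = 1). Gsr, glutathione reductase, was the single call among 22 oxidase and antioxidant genes, lower at 26.2, 30.8 and 27.8 FPKM in MacB3-3wk, against 104, 108 and 87.01 FPKM in MacB2-3wk (log2 fold change -1.78, SE 0.24, adjusted p = 0.000196). Tnfsf14, which encodes LIGHT, was the single call among 23 costimulatory and checkpoint genes, lower at 6.33, 8.76 and 6.16 FPKM in MacB3-3wk, against 15.6, 15.8 and 18.6 FPKM in MacB2-3wk (log2 fold change -1.14, SE 0.24, adjusted p = 0.00835). Of the antioxidant and the costimulatory list, 4.55% and 4.35% were called, against 2.64% of all genes tested.

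In the interleukin-1 and inflammasome list, 2 of 19 were called lower (10.5%, against 2.64% of all genes tested). Il18 was at 5.73, 3.17 and 4.18 FPKM in MacB3-3wk, against 12.1, 17.5 and 12.1 FPKM in MacB2-3wk (log2 fold change -1.48, SE 0.35, adjusted p = 0.0192), a call lost without MacB2-3wk replicate 2 or MacB3-3wk replicate 2 or 3 (highest adjusted p = 0.101). Il1rap, the shared chain of the interleukin-1 receptor family, was at 5.32, 5.11 and 4.25 FPKM in MacB3-3wk, against 9.48, 11.8 and 11.8 FPKM in MacB2-3wk (log2 fold change -1.03, SE 0.24, adjusted p = 0.0168), a call lost without MacB2-3wk replicate 2 or 3 or MacB3-3wk replicate 3 (highest adjusted p = 0.0842). Il1b was at 619, 668 and 501 FPKM in MacB3-3wk, against 936, 964 and 1425 FPKM in MacB2-3wk, lower without overlap and not called (adjusted p = 0.387).

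Metabolic, proliferation and stress lists had no call in limma. Of 28 glycolysis and hypoxia genes (median log2 fold change -0.19) 5 had an unadjusted p under 0.05, and of 27 nuclear oxidative phosphorylation subunits (median -0.06) 1 did. Of 30 cell cycle genes (median 0.23) 2 did, and of 25 immediate early and stress genes (median -0.19) 1 did. Atp5b, a subunit of ATP synthase, was at 1808, 1414 and 1743 FPKM in MacB3-3wk, against 1699.8, 1449 and 1927 FPKM in MacB2-3wk (adjusted p = 1). Aldoa, a glycolytic aldolase, was at 1108, 1452 and 1134 FPKM in MacB3-3wk, against 909, 627 and 874 FPKM in MacB2-3wk (adjusted p = 0.0794). Dusp1, a stress-induced phosphatase, was at 1300.0, 1829 and 1679 FPKM in MacB3-3wk, against 2336, 1270.4 and 2767 FPKM in MacB2-3wk (adjusted p = 0.736).

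The contrast was then read beside the 2-week libraries, which share no library with it. At 2 weeks 541 genes were called higher in MacB3-2wk than in MacB2-2wk (3.15%) and 722 lower (4.21%), 7.36% in all. Of the 453 genes called at 3 weeks, 321 were called at 2 weeks in the same direction, which is 70.9% of the 3-week calls and 25.4% of the 2-week calls. None was called in the opposite direction. The 321 held 198 higher and 123 lower genes, and 439 of the 453 had the same sign at both weeks, while 5 had a fold of exactly 0 at 2 weeks. Among the 9 with the opposite sign were Lmo2, S100a3, Eps8 and Pde4d, which were chosen after their values were seen, and no opposite-sign gene was called at 2 weeks.

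**Figure D4:**
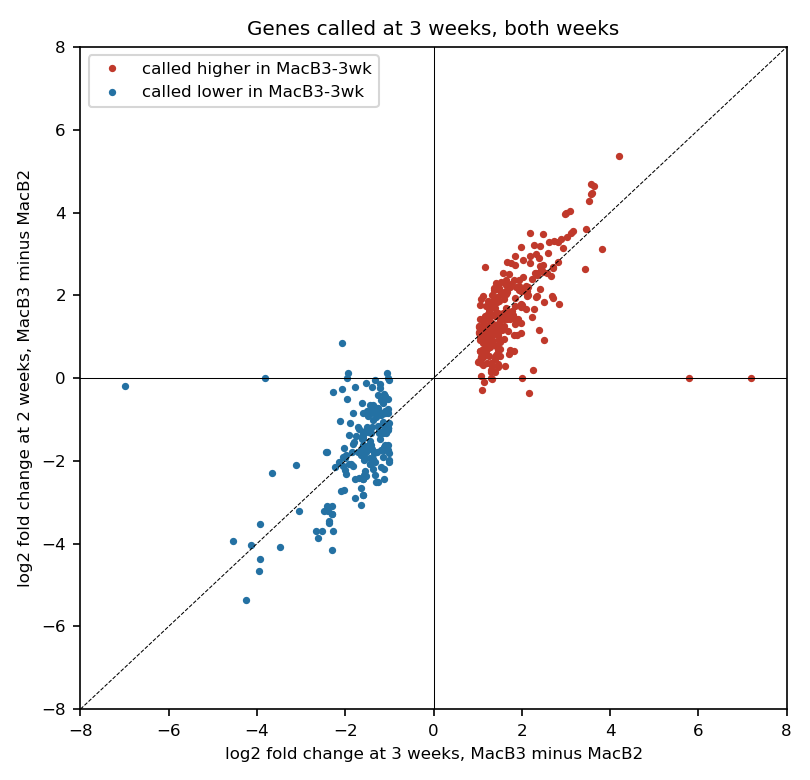
Log2 fold change, MacB3 minus MacB2, of the 453 genes called at 3 weeks, at 2 weeks (vertical axis) against 3 weeks (horizontal axis), with the dashed line of equal values. Genes called higher in MacB3-3wk are red and genes called lower are blue; 439 lie in the 2 quadrants of equal sign.

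The folds of 4 leading genes, picked as examples, had the same direction at both weeks. C1qa had a log2 fold change of 3.57 at 3 weeks and 4.70 at 2 weeks, Fcrls 4.20 and 5.36, and Cd177 -3.95 and -4.65. Plac8 had the larger fold at 3 weeks, -3.66 against -2.30 at 2 weeks. The test of the difference between the weeks called no gene in limma. It found 1121 genes at an unadjusted p under 0.05, and the smallest adjusted p was 0.0917, for Il16. That result does not show equal effects: the 95% interval of the difference, 3 weeks minus 2 weeks, was -2.13 to -0.11 for C1qa, 0.05 to 1.36 for Cd177 and -0.99 to 0.90 for H2-Ab1.

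No cell cycle gene passed the test of the difference between the weeks. At 3 weeks none of 30 was called, and at 2 weeks 18 were called higher and none lower, with median log2 fold changes of 0.23 and 1.16. In the test of the difference, 13 of the 30 had an unadjusted p under 0.05 and the smallest adjusted p was 0.394. Nusap1, a mitotic spindle gene, was at 121, 141 and 103 FPKM in MacB3-3wk, against 68.9, 73.4 and 63.1 FPKM in MacB2-3wk; at 2 weeks it was at 66.5, 112 and 69.2 FPKM in MacB3-2wk, against 2.94, 15.9 and 26.9 FPKM in MacB2-2wk. The groups did not overlap for Nusap1 in either week. Pcna, the replication clamp, was at 156, 128 and 141 FPKM in MacB3-3wk, against 133, 105 and 119 FPKM in MacB2-3wk, and at 2 weeks at 149, 185 and 152 FPKM in MacB3-2wk, against 88.8, 127 and 113 FPKM in MacB2-2wk.

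No nonclassical monocyte gene passed the test of the difference either. The list had a median log2 fold change of -0.58 at 3 weeks and -1.62 at 2 weeks and 9 of 16 at an unadjusted p under 0.05 for the difference (smallest adjusted p = 0.394). Cx3cr1, called higher at 3 weeks, had a log2 fold change of 0.26 at 2 weeks (adjusted p = 0.493), and the difference between the weeks was 1.20 (adjusted p = 0.394).

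Levels in the other groups of the study give the setting. Naive lungs had supplied MacA-N, MacB1-N and MacB2-N, and 2-week lungs MacA-2wk. C1qa was at 2011, 2008 and 2124 FPKM in MacB3-3wk and 1727, 1903 and 1961 FPKM in MacB3-2wk, against 145, 206 and 167 FPKM in MacB2-3wk and 63.9, 65.1 and 85.4 FPKM in MacB2-2wk, and averaged 29.2 ± 6.08 FPKM in MacB1-N and 37.8 ± 3.48 FPKM in MacB2-N (SD, n = 3). Cd177 averaged 0.933 ± 0.219 FPKM in MacB3-3wk and 29.2 ± 7.27 FPKM in MacB2-3wk, and 85.6 ± 14.9 FPKM in MacB2-N. H2-Ab1 averaged 3017 ± 474 FPKM in MacB3-3wk, 676 ± 53.9 FPKM in MacB2-3wk and 4459.6 ± 359.6 FPKM in MacB1-N. Ctsd averaged 1199.7 ± 172 FPKM in MacB3-3wk and 379 ± 63.7 FPKM in MacB2-3wk, and 2261 ± 377 FPKM in MacA-N, the population sorted as SiglecF+ and CD11c+. No test was made against these other groups.

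**Figure D5:**
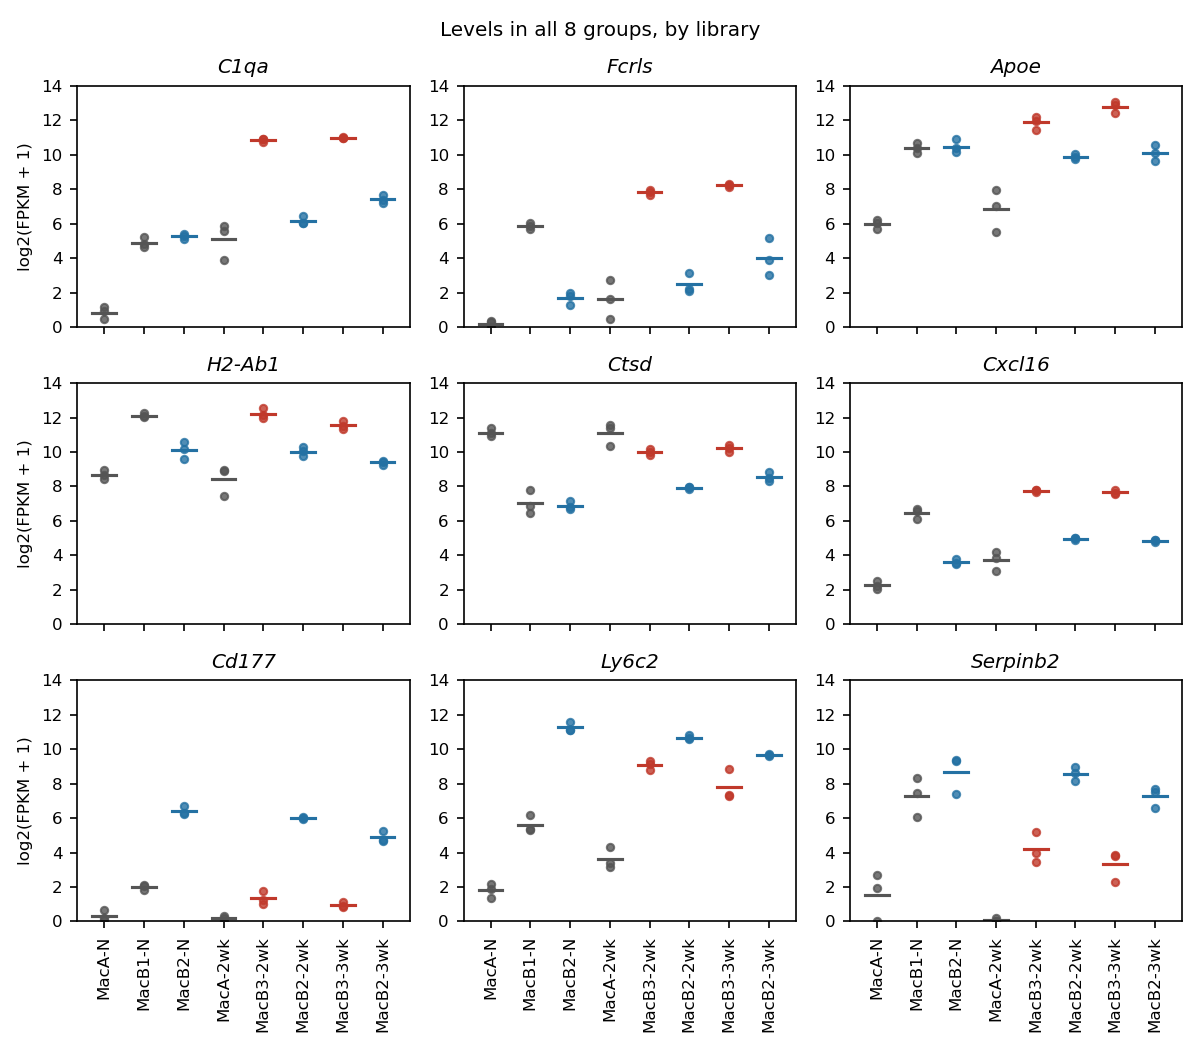
Level of 9 genes in all 8 groups of the study as log2(FPKM + 1), 1 point per library and a bar for the mean of 3, with MacB3 groups in red, MacB2 groups in blue and others in grey. C1qa, Fcrls and Cxcl16 are highest in the 2 MacB3 groups, and Cd177 and Ly6c2 are lower in MacB3 than in MacB2 at each week.

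Markers of other cell types were read for both groups. Fibroblast markers summed to 289 to 412 FPKM in MacB3-3wk, against 693 to 1103 FPKM in MacB2-3wk, and lung epithelial markers to 306 to 350.0 FPKM in MacB3-3wk, against 680 to 937 FPKM in MacB2-3wk. Endothelial markers summed to 123 to 153 FPKM in MacB3-3wk, against 224 to 260.1 FPKM in MacB2-3wk, and neutrophil markers to 247 to 380 FPKM in MacB3-3wk, against 599 to 1411 FPKM in MacB2-3wk. All 4 sums were lower in every MacB3-3wk library than in every MacB2-3wk library, but Scgb1a1 made up most of each epithelial sum. Mmp9 made up most of the highest neutrophil sum. Gene by gene, the groups did not overlap for 14 of 16 fibroblast, 5 of 16 epithelial, 7 of 16 endothelial and 8 of 13 neutrophil genes. Over all genes tested the share was 24.1%. The median log2 fold change was -1.07 for fibroblast and -0.65 for epithelial genes. Against 2.64% of all genes tested, the genes called in these lists were Ace of 16 endothelial genes (6.25%), Lcn2 and Prtn3 of 13 neutrophil genes (15.4%), and none of 16 fibroblast or 16 epithelial genes, where 4 and 2 had an unadjusted p under 0.05. The neutrophil list includes Mmp9, which macrophages also express, and Ly6g and Camp of this list were listed at 0 in all 6 libraries. Hmgcs1, a gene of sterol synthesis in most cells, was also listed at 0 there, so a 0 in the table does not show that a gene is not expressed. Prtn3, a granule protease, was at 4.16, 5.44 and 1.31 FPKM in MacB3-3wk, against 23.2, 17.4 and 17.2 FPKM in MacB2-3wk (log2 fold change -2.24, SE 0.47, adjusted p = 0.00906), a call lost without MacB3-3wk replicate 3 (adjusted p = 0.0701). Scgb1a1, the club cell secretory protein, was at 270.4, 261 and 244 FPKM in MacB3-3wk, against 577, 756 and 524 FPKM in MacB2-3wk (adjusted p = 0.619). Col3a1, a fibrillar collagen, was at 115, 112 and 72.998 FPKM in MacB3-3wk, against 167, 384 and 247 FPKM in MacB2-3wk (adjusted p = 0.324). Their part in the lower genes of MacB3-3wk was not tested.

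Lymphocyte and dendritic cell markers were at low levels. The share called was 14.3% of the dendritic cell list, 5.88% of the T cell list and 9.09% of the B cell list. It was 8.33% of the platelet and red cell list, against 2.64% of all genes tested. Dendritic cell markers summed to 65.2 to 84.8 FPKM in MacB3-3wk, against 126 to 134 FPKM in MacB2-3wk, with Cd209a and Dpp4 called lower among 14. The Dpp4 call (log2 fold change -1.92, adjusted p = 0.013) was lost without MacB2-3wk replicate 2 or MacB3-3wk replicate 2 or 3 (highest adjusted p = 0.0771). T cell markers summed to 20.1 to 32.9 FPKM in MacB3-3wk, against 25.01 to 47.7 FPKM in MacB2-3wk. Cd4, the coreceptor of helper T cells that some mouse macrophages also express, was the 1 called gene of 17, at 4.68, 6.96 and 7.42 FPKM in MacB3-3wk, against 2.04, 0.887 and 0.502 FPKM in MacB2-3wk (log2 fold change 1.82, SE 0.31, adjusted p = 0.0015), while Cd3g was at 2.09, 4.62 and 2.18 FPKM in MacB3-3wk, against 15.4, 2.51 and 4.31 FPKM in MacB2-3wk. Cd22, called higher among 11 B cell genes, was at 5.21, 6.58 and 6.69 FPKM in MacB3-3wk, against 0.97, 1.23 and 1.24 FPKM in MacB2-3wk (log2 fold change 1.73, SE 0.35, adjusted p = 0.00636), while Cd79b was at 2.72, 2.895 and 2.41 FPKM in MacB3-3wk, against 0.996, 2.61 and 2.51 FPKM in MacB2-3wk. Of the 11 B cell genes, 3 had a positive and 8 a negative log2 fold change (median -0.24), and their levels summed to 39.6 to 46.1 FPKM in MacB3-3wk, against 49.6 to 61.2 FPKM in MacB2-3wk. The part of other cells in the results for Cd4 and Cd22 was not tested. The platelet and red cell list summed to 752 to 1361 FPKM in MacB3-3wk, against 84.5 to 226 FPKM in MacB2-3wk, with Pf4 the 1 called gene of 12. The list held 6 positive and 6 negative log2 fold changes (median 0.03). Ppbp, another platelet chemokine, was at 114, 31.7 and 19.4 FPKM in MacB3-3wk, against 25.5, 3.69 and 4.35 FPKM in MacB2-3wk (adjusted p = 0.224). Itga2b, a platelet integrin, was at 1.32, 1.57 and 6.57 FPKM in MacB3-3wk, against 0.492, 0.309 and 0.135 FPKM in MacB2-3wk. The other way, Gp1bb, a platelet glycoprotein, was at 0.275, 0 and 0.263 FPKM in MacB3-3wk, against 1.82, 0 and 0.682 FPKM in MacB2-3wk. Hbb-bt, a beta globin of red cells, was at 0, 0.632 and 0 FPKM in MacB3-3wk, against 2.19, 2.08 and 2.06 FPKM in MacB2-3wk.

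Of 20 alveolar macrophage genes, Bhlhe41 and Slc7a2 were called higher and Chil3 and Ear2 lower (20%, against 2.64% of all genes tested). Siglecf, the defining surface marker of these cells, was at 2.18, 0.741 and 2.59 FPKM in MacB3-3wk, against 4.75, 1.51 and 2.75 FPKM in MacB2-3wk. The summed levels of the list overlapped, at 596 to 1160 FPKM in MacB3-3wk, against 586 to 961 FPKM in MacB2-3wk.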

How the data were processed

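RNA of sorted lung cells was sequenced by the authors from total RNA libraries (NuGen Ovation FFPE kit with mouse ribosomal RNA oligonucleotides, per the labels' protocols). The deposited table held 37979 genes and 24 libraries. The submitters' processing notes name FastQC, TopHat2 (version 2), Cufflinks 2.0.2 and the build mm10, and the deposited values were taken to be the authors' FPKM from those notes, because the header states no unit. The sources used here give no strand setting, so reads of a gene and of an antisense partner cannot be told apart, and near-identical copies (Ly6c2, Ear2, Bcl2a1d, Klrb1b, Mgl2) are uncertain. Loci in the table overlapped the GRCm38 position for 4217 of 32917 matched genes. Printed positions are therefore those of the same Ensembl identifiers in GENCODE M21 (GRCm38). The series text gives the MacB3 samples of 2 weeks the name of the 3-week group, and the sample titles were followed.

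Values were used as log2(FPKM + 1). A gene was tested if any group averaged 1 FPKM or more, which left 17156 genes. All 24 libraries in 8 groups entered limma 3.58.1 under R 4.3.3, leaving 16 residual degrees of freedom, with a mean-dependent variance and Benjamini-Hochberg adjustment. The procedure was tested on simulated data. FPKM keep no absolute depth, and no count interval can be given. The numbers 1 to 3 of the MacB libraries equal run lanes 2, 3 and 7 in the labels, so the number was also fitted as a block. The deviations from the group means of same-numbered libraries at 3 weeks correlated at 0.03, -0.07 and -0.06.

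The comparison, its members and the 45 gene lists (886 entries, 884 matched) were chosen with earlier results of these data known. The naming rule took the 12 highest and 12 lowest called protein-coding genes at 20 FPKM or more whose groups did not overlap. It added from each list up to 4 called members with the smallest adjusted p, called members against the list's majority and up to 3 abundant members not called. It also took 12 sorting and state markers and the lists of other cell types. Other genes were named after their values were seen, and some genes that the rule selects are not reported here. Promoters are from the RefSeq table on GRCm38.p6, which had a window for 10427 tested genes. Pseudocount, filter, scaling, libraries in the fit, replicate block, variance trend, gene set and single left-out libraries were varied.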

Additional observations from a re-analysis of the deposited data

How the results depend on the processing

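At 3 weeks, 277 genes were called higher and 176 lower. With log2(FPKM + 10) the numbers were 158 and 64, and with the replicate block in the 6 libraries alone, which leaves 2 residual degrees of freedom, 21 and 12. Leaving out 1 library gave 192 to 242 higher and 105 to 144 lower. The other settings gave 222 to 302 higher and 143 to 253 lower, among them 273 and 166 with the replicate block over all 24 libraries, 222 and 196 with equal protein-coding sums, and 261 and 253 with only the groups compared. The median log2 fold change over all genes tested was -0.12 with equal protein-coding sums. At 2 weeks, 541 genes were called higher and 722 lower. With log2(FPKM + 10) they were 262 and 224, and leaving out 1 library gave 416 to 546 higher and 476 to 715 lower. The difference between the weeks called 0 genes; it called 2 with log2(FPKM + 10), 1 with no filter, 1 with only the groups compared and 0 to 3 when 1 library was left out. Of 96 named genes called at 3 weeks, 64 were called without each library in turn, and none changed sign in any setting. With log2(FPKM + 10), 29 of the 96 lost their calls, among them Cd4, Cd22, Emr4, F5, Ear2, Fcgrt, Pla2g15, Tgfbr1 and Tnfsf14. The block over 24 libraries ended the calls of Batf2, Cd209a, Clec4n and Itgb5, and no other among the 96. Of 115 called list members, 70 were called without each library in turn. The cause of these differences was not tested. The depth of the libraries is unknown, so its part in low values could not be given.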

Other observations

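Il16, a cytokine precursor with the smallest adjusted p for the difference between the weeks (0.0917), was at 16.5, 9.96 and 13.7 FPKM in MacB3-3wk, against 8.07, 7.43 and 6.89 FPKM in MacB2-3wk. At 2 weeks it was at 11.5, 9.37 and 8.92 FPKM in MacB3-2wk, against 22.2, 17.7 and 19.5 FPKM in MacB2-2wk. Lmo2, a transcriptional adaptor of blood progenitors, was called higher at 3 weeks, at 65.9, 73.2 and 58.4 FPKM in MacB3-3wk, against 30.5, 21.1 and 38.3 FPKM in MacB2-3wk (log2 fold change 1.14, SE 0.23, adjusted p = 0.00718), and had a log2 fold change of -0.09 at 2 weeks (adjusted p = 0.877). S100a3, a calcium-binding gene, was called higher at 3 weeks, at 1.12, 1.66 and 1.17 FPKM in MacB3-3wk, against 0.269, 0 and 0 FPKM in MacB2-3wk (log2 fold change 1.09, SE 0.22, adjusted p = 0.00797), and had a log2 fold change of -0.29 at 2 weeks (adjusted p = 0.467). The difference between the weeks had an adjusted p of 0.394 for both Lmo2 and S100a3, so it was not called. These genes were chosen after their values were seen.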
